A study of Danio rerio with 4 samples.

Results

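The genes described are 9 of the pancreatic acinar cell, namely the carboxypeptidase genes cpa1, cpa4, cpa5 and cpb1, the amylase gene amy2a, the carboxyl ester lipase genes cel.1 and cel.2, the phospholipase gene pla2g1b and the disulfide isomerase gene pdia2. They were chosen by gene name, as the rows of 2 deposited tables whose name begins with cpa and a digit, cpb1, amy2, cel. with its dot, pnlip, clps, pla2g1b or pdia2, or equals cuzd1.1. The 9 genes are among 3020 distinct genes in the tables. All 9 stood in the table of replicate 2 (1560 genes), and 0 in the table of replicate 1 (1812 genes). No row began with pnlip or clps, and none was named cuzd1.1. None of 14 RefSeq symbols of these families began with pnlip or clps either, so that absence concerns names and not expression.

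The libraries came from centroacinar cells (CAC) and from non-centroacinar cells (non-CAC), which were separated by fluorescence-activated sorting from dissociated pancreas of adult AB zebrafish. There were 4 libraries, 2 of CAC and 2 of non-CAC, with 1 of each in each replicate. Genotype and treatment beyond the strain, the age of the fish beyond adult, the number of fish pooled and the marker used for the sort are not stated in the labels. Each replicate has its own table, in which the authors list the genes they called different between its libraries, with a linear ratio and a posterior probability, and with no level per library. The headers do not name the numerator of the ratio. Ratios are therefore described as above 1 or below 1, and neither side is assigned to CAC or to non-CAC. With 1 library per group in a table, no ratio has a replicate error and no p-value was computed.

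Acinar cells make and store the enzymes that digest food in the gut. Carboxypeptidases are secreted as inactive precursors, are activated by trypsin and remove amino acids from the end of peptides that elastase, trypsin and chymotrypsin have cut. Amylase splits starch, carboxyl ester lipase and pancreatic phospholipase split lipids, and protein disulfide isomerases help secreted proteins to fold in the endoplasmic reticulum. Centroacinar cells lie where the ducts end within the acini and are not a main source of these enzymes.

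All 9 genes lay above 1 in replicate 2, with ratios from 4.48 to 9.56 in the authors' deposited table. Of all the genes in that table, 670 of 1560 (42.9%) lay above 1. The median log2 ratio was 2.84 over the 9 genes and 2.61 over the 670, so the genes lay within the middle of the listed ratios and not at their high end. By size of ratio they held places between 186 and 485 of 670. Of the 9, 7 were above the median of the 670 and 2 below it.

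The 4 carboxypeptidases described held 4 of the 5 highest ratios of the 9. Enzymes of the A type (cpa1, cpa4 and cpa5) take off aromatic or aliphatic residues in mammals, and the B type (cpb1) takes off basic ones. In the authors' deposited table, cpa1 (ENSDARG00000030915, Zv9 chromosome 25, 18935475 to 18941306) stood at a ratio of 9.56, the highest of the 9. Its neighbour cpa5 (ENSDARG00000021339, chromosome 25, 18947213 to 18957985) had a deposited ratio of 9.39. These genes stood together, and the next gene, cpb1 (ENSDARG00000045442, chromosome 24, 4835110 to 4845460), had a deposited ratio of 7.49. For cpa4 (ENSDARG00000043722, chromosome 25, 16939227 to 16946517) the authors' deposited table gave 7.15. The largest of the 4 ratios was thus 1.34 times the smallest.

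The amylase gene amy2a (ENSDARG00000013856, chromosome 2, 15433337 to 15447555) was given 7.49 by the authors' deposited table. It lay beside cpb1, with a log2 ratio of 2.90 against 2.91. A second amylase gene was listed under the clone name zgc:92137, which the reference tables pair with amy2al2. It is not one of the 9 because its name in the table does not begin with amy2. The authors' deposited table put its ratio at 5.73, on the same side and below that of amy2a. The amylase gene amy2al1 was in neither table.

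The lipid-splitting enzymes lay lower than the 4 carboxypeptidases described. Carboxyl ester lipase, which is activated by bile salts, is encoded by cel.1 (ENSDARG00000017490, chromosome 21, 9825252 to 9835374) and cel.2 (ENSDARG00000029822, chromosome 21, 9809056 to 9817988). The authors' deposited table gave 6.38 for cel.1 and 6.51 for cel.2. The pancreatic phospholipase A2 gene pla2g1b (ENSDARG00000009153, chromosome 8, 41676783 to 41692286) had the lowest of the 9 ratios, 4.48 in the authors' deposited table, or 2.16 on the log2 scale.

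The isomerase gene pdia2 (ENSDARG00000018263, chromosome 1, 9030572 to 9040849) was given 5.48 by the authors' deposited table. It is not an enzyme of digestion, and in mammals it is a disulfide isomerase made mainly in the pancreas. It was the only gene listed in replicate 2 from a list of 16 genes of folding in the endoplasmic reticulum, and 0 of the 16 were listed in replicate 1. The chaperone genes hspa5, hsp90b1 and calr and the isomerase genes pdia3, pdia4, pdia6 and p4hb were thus in neither table. A gene absent from a table may have been similar in both libraries, too low to call or changed by too little to be called.

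In the order of the ratios, 5 of the 8 steps between neighbours were smaller than 1.1 times, a limit that was not planned. The largest of these, between cpa4 and cel.2, was 1.097 times, just under the limit. The larger steps lay between cpa5 and cpb1 (1.25 times), between cel.1 and pdia2 (1.16 times) and between pdia2 and pla2g1b (1.22 times). Without a value per library, it cannot be said which of these steps exceed the spread between libraries.

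**Figure D1:**
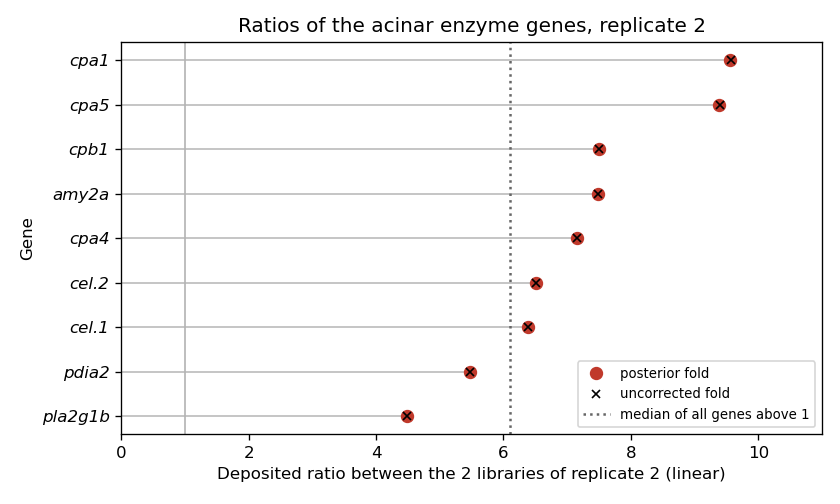
Deposited ratio of each of the 9 genes between the libraries of replicate 2 (x axis, linear, no unit), by gene. Filled points are the posterior fold, crosses the uncorrected fold, the dotted line the median of the 670 genes above 1 and the thin line a ratio of 1. The points run from 4.48 for pla2g1b to 9.56 for cpa1, and each cross lies on its point.

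Of the 9 genes, 4 lie in 2 neighbouring pairs. On chromosome 25, cpa1 and cpa5 are separated by 5906 bases, and on chromosome 21, cel.2 and cel.1 are separated by 7263 bases. In the RefSeq table of the GRCz12tu assembly, 0 other genes start between the genes of either pair. The genes of a pair had nearly the same ratio. The ratios of cpa1 and cpa5 differed by 1.02 times, as did those of cel.2 and cel.1. Such closeness was not particular to neighbours. The ratios of cpb1 on chromosome 24 and amy2a on chromosome 2 differed by 1.0005 times. The sources used here do not say how reads shared between similar copies were counted, so the separate values within a pair are uncertain.

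The other listed genes that could be placed near these loci lay on both sides. A distance of 300 kb from the start of one of the 9 genes was chosen after the values were seen. Within it, the table of replicate 2 held 5 other genes with a locus, 1 above 1 and 4 below. That of replicate 1 held 4, 2 above and 2 below. Rows without a readable locus could not be placed, so these counts are lower bounds. Such rows were 168 of 1560 in replicate 2 and 335 of 1812 in replicate 1. Near cpa4, the authors' deposited table of replicate 2 had zgc:77158 at -2.20 on the log2 scale and a gene with a clone name at -4.33. Near amy2a it had olfm3b at -4.94, and near pla2g1b it had si:ch211-170d8.2 at -3.42. By the uncorrected fold, olfm3b stood at -11.29 and the clone-named gene at -5.10, so their size depends on the column used. The exception, si:dkeyp-75b4.10, lay near pdia2 with a deposited log2 value of 2.90. Over all genes listed, 57.1% lay below 1 in replicate 2 and 33.4% in replicate 1.

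The posterior probabilities of equal expression were small for all 9 genes, from 4.7e-14 for cpa1 to 4.76e-06 for pla2g1b in the authors' deposited table. The median over the 670 genes above 1 was 9.38e-05, and all 9 lay under it. By this probability the 9 genes held places between 12 and 206 of 670, further forward than by ratio. The deposited probability mostly fell as the ratio rose within the group. For cpb1 it was larger than for amy2a and cpa4, whose ratios were smaller. It was 3.4e-13 for cpa5, 6.64e-11 for amy2a, 1.42e-10 for cpa4 and 1.78e-10 for cpb1 in the authors' deposited table. It was 4.18e-09 for cel.2, 7.95e-09 for cel.1 and 6.63e-08 for pdia2.

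Genes of a like ratio had larger probabilities in most cases. A window of 0.1 on the log2 scale around each of the 9 genes was chosen after the values were seen. It held between 33 and 75 genes above 1 that are not among the 9. Between 0 and 5 of these others had a smaller probability of equal expression. The 9 genes themselves were left out of these counts. Among them, cpa1 lay in the window of cpa5 with a smaller probability, as did amy2a and cpa4 in that of cpb1. For cpa5, 0 of 33 others outside the 9 had a smaller probability, and their median was 0.000209 in the authors' deposited table. For amy2a it was 4 of 38, with a median of 1.77e-07, and for pla2g1b 5 of 75, with a median of 4.63e-05.

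**Figure D2:**
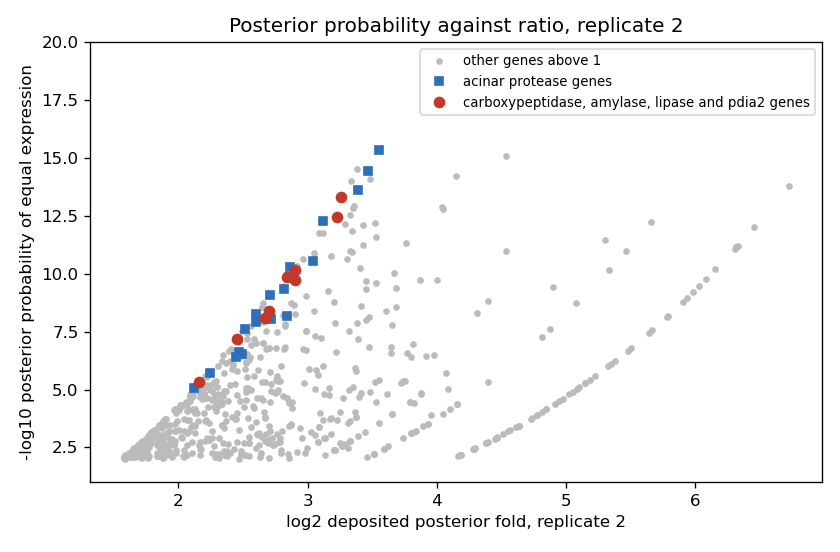
Posterior probability of equal expression (y axis, -log10) against log2 posterior fold (x axis) for genes above 1 in replicate 2. Red circles are the 9 genes, blue squares the 18 acinar protease genes and grey points the rest, and 2 genes listed at a probability of 0 are left out. Red circles run near the upper left edge of the points, from pla2g1b at a log2 ratio of 2.16 to cpa1 at 3.26. Blue squares overlap them and run from 2.12 to 3.55. The square of cela1.7, at 2.84, lies lower than the red circle of cpa4 at the same rounded ratio.

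The 2 fold columns nearly coincided for these genes. The deposited uncorrected fold exceeded the posterior fold by between 0.00231% for cpb1 and 0.194% for pla2g1b. Of 290 other genes in the same range of ratios, 20 (6.90%) had a gap as small as 0.194%, and the median gap was 4.39%. Of those 20 genes, 13 were acinar protease genes, among them try (prss1), ela2, ela3l, ctrb1 and ctrl. The other 7 included amy2al2, the endoribonuclease gene ENDOU, the peptidoglycan recognition gene pglyrp6 and the astacin protease gene c6ast3, all named after their values were seen. The gap is not a level, and no level in either library can be read from it.

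**Figure D3:**
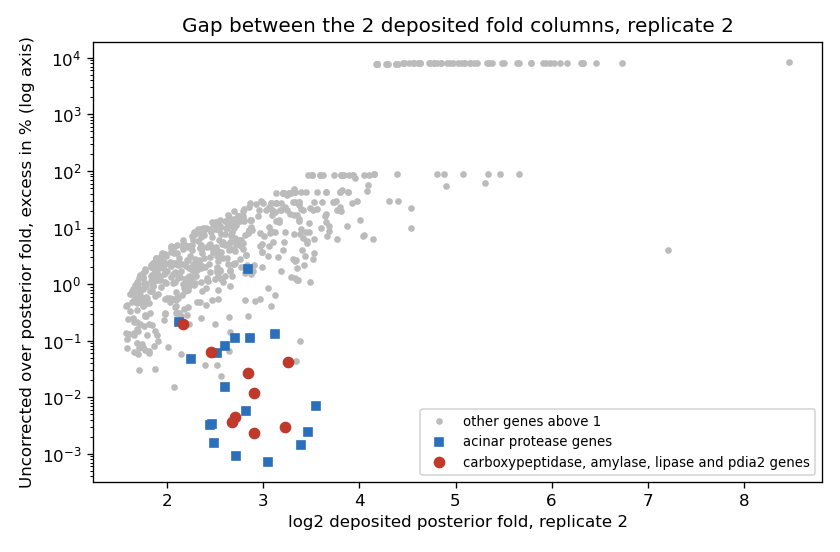
Excess of the uncorrected over the posterior fold (y axis, percent, log axis) against log2 posterior fold (x axis) for genes above 1 in replicate 2. Red circles are the 9 genes, blue squares the 18 acinar protease genes and grey points the rest. All red circles lie at or below 0.194%, as do 38 grey points, of which 7 lie within the range of ratios of the red circles.

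The proteases that acinar cells secrete with these enzymes had ratios in an overlapping range. Of a list of 15 names, with all genes whose name begins with cela1 counted under 1 of them, 18 genes were listed in replicate 2 and 0 in replicate 1. The name zgc:92511, which RefSeq pairs with cela1.5, was listed under separate identifiers, at ratios of 5.73 and 4.74. Each was counted wherever the proteases are counted. All 18 lay above 1, as did 42.9% of all genes listed in replicate 2. Their median log2 ratio was 2.71, and their deposited ratios ran from 4.35 to 11.7. The 9 genes all lay within that range, and 14 of the 18 proteases lay within the range of the 9. The 3 proteases above cpa1 were ela2l, prss59.1 and prss59.2, which the authors' deposited table put at 3.55, 3.47 and 3.39 on the log2 scale. The 1 below pla2g1b was cela1.4, with a deposited log2 value of 2.12. No difference between the groups can be tested with 1 pair of libraries.

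Of 8 acinar regulators, the transcription factor gene ptf1a, which drives the acinar program, was alone in being listed in replicate 2, where the authors' deposited table put it at 2.74 on the log2 scale. Its probability of equal expression was 0.00262, larger than that of any of the 9 genes. Of 14 genes of the zymogen granule and of secretion, 3 were listed in replicate 2, all above 1. These were the syncollin gene sycn.1 at a deposited log2 ratio of 2.84, the water channel gene aqp12 at 2.03 and the cholecystokinin receptor gene cckbra at 3.59. From this list the deposited table of replicate 1 had RAB27B alone, at 8.87 on the log2 scale. Of all genes listed, 42.9% lay above 1 in replicate 2 and 66.6% in replicate 1. By the uncorrected fold, RAB27B stood at 16.04 and cckbra at 4.47, so the size of both depends on the column used.

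Of 10 genes of other lipid enzymes, 2 were listed in replicate 2 and 3 in replicate 1, all below 1. The other 7 were in neither table, and 57.1% and 33.4% of all genes listed in replicates 2 and 1 lay below 1. The monoglyceride lipase gene mgll was placed at -6.99 in replicate 1 and -3.07 in replicate 2 on the log2 scale by the authors' deposited tables. The lipase gene lipia was at -5.03 and -4.31, and the endothelial lipase gene lipg was at -5.41 in replicate 1 alone.

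In replicate 1 the authors' deposited table held 1 related gene, listed as CUZD1 without a readable locus. The table of gene names pairs its identifier, ENSDARG00000089050, with cuzd1.1, a gene whose relative in mammals encodes a protein of the zymogen granule membrane. Its ratio was 139, its uncorrected ratio was 172 and its probability of equal expression was 0.000261 in the authors' deposited table. It was not listed in replicate 2. It lay above 1, as did 1206 of 1812 genes (66.6%) in that table. The nearest ratio above 1 listed in replicate 1 was 35.3, which is larger than every ratio of the 9 genes in replicate 2. The result for the 9 genes rests on 1 pair of libraries.

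**Figure D4:**
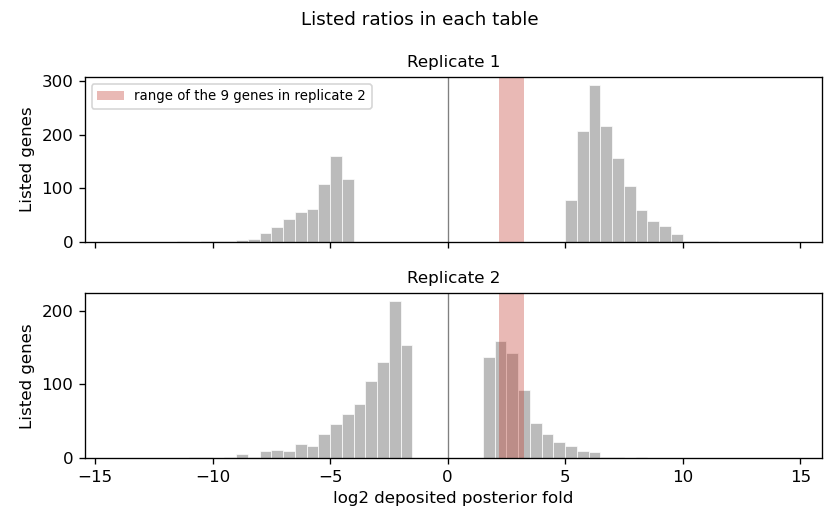
Number of listed genes (y axis) by log2 posterior fold (x axis) in replicate 1 (top) and replicate 2 (bottom). The red band marks the range of the 9 genes in replicate 2, from 2.16 to 3.26, and holds no listed gene in replicate 1.

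Markers of acinar cells were set beside these genes. Of 7 acinar markers, 6 were listed in replicate 2, all above 1, and 0 in replicate 1. All 6 also stand on the lists above: ela2, ela2l, ela3l, try and ctrb1 as proteases and ptf1a as a regulator. They therefore add no separate check of the name. Of all genes listed in replicate 2, 42.9% lay above 1. The share of listed genes below 1 was 57.1% in replicate 2 and 33.4% in replicate 1. Of 10 ductal and centroacinar markers, 9 were listed in replicate 2 and 8 in replicate 1, all below 1. In replicate 2 they ran from -4.86 for the chloride channel gene cftr to -2.32 for nkx6.1 on the log2 scale in the authors' deposited table.

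Some markers of other cells also lay above 1 in replicate 2, as did 42.9% of all genes listed there. Of 4 erythrocyte markers, 2 were listed, the globin genes hbaa1 and ba1, which the authors' deposited table put at 3.12 and 2.15 on the log2 scale. Of 8 leukocyte markers, 3 were listed, mpeg1 at 2.11, ptprc at 2.08 and rag1 at 1.85. Of 6 endocrine markers only ins was listed, at 1.71. No endothelial, hepatocyte or mesenchymal marker was listed in replicate 2. Of 4 intestinal markers aqp8a.1 was listed, at -3.70 in replicate 2 and at -8.88 in replicate 1. Of 6 oocyte markers 3 were listed in replicate 2, from -10.14 to -5.59. The lowest of these, zp2.5, stood at -16.54 by the uncorrected fold, and lay above 1 in replicate 1, at 7.99. In replicate 1, 5 of the 8 leukocyte markers were listed, all above 1, as were 66.6% of all genes listed there. Of 5 endothelial markers, 3 were listed in replicate 1, 2 above 1 and 1 below. The part of these cells in the ratios of the 9 genes was not tested. In a sorted population, a different number of acinar cells and a different amount of RNA per acinar cell cannot be told apart.

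By the size of the ratio alone, 5 genes with a symbol that were absent from replicate 1 lay nearest to the median of the 9 genes in replicate 2. These were sycn.1 and cela1.7, which also stand on the lists above, the formin gene fmn1, the granulin gene grn1 and si:dkey-183g16.1. All lay within 0.015 of 2.84 on the log2 scale. Their probabilities of equal expression in the authors' deposited table ran from 1.05e-10 for sycn.1 to 2.42e-05 for fmn1.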

How the data were processed

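RNA sequencing libraries of sorted CAC and non-CAC were made with a TruSeq kit, per the labels' protocols. The submitters' processing notes name RSEM and the zebrafish assembly Zv9, also called danRer7, with no version or role. Which model gave the posterior probabilities is not stated there. Per the file headers, the deposited tables hold 2 linear ratio columns (a posterior and an uncorrected fold) and posterior probabilities between 0 and 1. Every listed gene had a probability of difference of at least 0.99. Depth per library is unknown, so no counting interval could be given.

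The deposited values were read with pandas 2.3.3, and the posterior fold was put on a log2 scale with NumPy 2.4.6. No count test was possible, so the planned description of lists was used. The genes and lists were chosen with earlier results of these data known. List genes were matched by name in the file, in a table of Ensembl gene names or as a RefSeq symbol or synonym (GRCz12tu, names and neighbours only). All 9 gene names are RefSeq symbols. The rule found 10 genes, of which 1 is not reported here and enters no value of the group. The named genes were the 9 reported genes, up to 4 of each list by size of ratio, and the 5 nearest to the median; others are named as examples after their values were seen. The labels do not say whether replicates came from separate fish. Both libraries of a replicate share a table, so each ratio is within a replicate. The steps that find, side and rank genes were tested on simulated data. Sequences were not used here.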

Additional observations from a re-analysis of the deposited data

How the results depend on the processing

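The count of genes listed above 1 was 9. It stayed at 9 with the uncorrected fold and with a probability of equal expression under 0.001. It also stayed at 9 at 4-fold or more from 1 and with each table centred on its median. These settings could not lower the count and are no check of it. The lowest of the 9 ratios was 4.48, with a largest probability of 4.76e-06 and a largest gap between fold columns of 0.194%. The median subtracted in replicate 2 was -1.90. Over both tables the count was 11 when reference symbols were also matched (chosen after seeing the data). That setting added amy2al2 in replicate 2 and cuzd1.1 in replicate 1. Leaving out 1 replicate gave counts from 0 (without replicate 2) to 9 (without replicate 1). The median log2 ratio of 2.84 became 4.74 when the table of replicate 2, whose median is -1.90, was centred on 0. It was between 2.77 and 2.87 under the other alternatives, and no gene's log2 ratio moved by more than 0.0028 with the uncorrected fold. No gene was on the same side in both tables because none was in both. No paired analysis was possible because 0 of the 9 genes are in both tables and each table has 1 library per group. The planned look at promoters and proteins was not run.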
